A study of Mus musculus with 35 samples.

Results

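The arrays labelled plasma cell were set against the arrays labelled plasmablast, 7 of the 35 arrays of the study. The first group held 3 arrays of bone marrow cells sorted as low for B220, positive for Cd138 and negative for Cd93. The second held 4 arrays of spleen cells sorted as positive for B220, positive for Cd138 and negative for Cd93. Both groups came from wild-type mice of the B6 strain, and the 7 arrays were taken by their titles, with no measured value used. B220 is the B-cell form of the surface phosphatase Ptprc, Cd138 is the proteoglycan Sdc1, and Cd93 marks immature B cells. The study profiled sorted mouse B-cell stages and lymphoid tumours on Affymetrix Mouse 430A2 arrays. The labels do not say whether each array came from its own animal, so p-values measure only the spread between arrays. Tissue and sort gate differed together, so bone marrow against spleen and one gate against the other cannot be told apart. Fewer cells of a type and less RNA per cell cannot be told apart in such bulk samples either.

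B cells that meet antigen can become plasmablasts, which divide and begin to secrete antibody, and then plasma cells, which stop dividing and secrete for long periods, many of them in the bone marrow. The factors Prdm1, Irf4 and Xbp1 drive this step, shutting down B-cell genes such as Pax5 and Bcl6 and building up the endoplasmic reticulum. Plasma cells in the marrow are known for high Sdc1, for the survival receptor Tnfrsf17 (BCMA) and for very high immunoglobulin transcripts.

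Levels are given as RMA values on the log2 scale, where a difference of 1 is a doubling in signal, and differences are the mean of the plasma cell-labelled arrays minus the plasmablast mean. The differences carry standard errors and adjusted p from limma with Benjamini-Hochberg adjustment over all 12393 genes, fitted on the 22 sorted normal arrays. The spread is pooled over all stages in that fit, so a gene that varied within another stage has a large standard error here too. A gene was called at an adjusted p under 0.05. Only called genes are said to rise or fall.

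The 3 arrays labelled plasma cell did not behave as a set of equals. Replicates 1 and 2 correlated with each other at r = 0.991 over genes, and with replicate 3 at 0.903 and 0.904. The 4 plasmablast arrays correlated with each other at 0.971 to 0.99. Control probe sets at the 3′ end of the Actb and Gapdh transcripts exceeded those at the 5′ end by 4.59 and 4.46 in replicates 1 and 2, but by 0.45 in replicate 3, against 0.93 to 1.16 in the plasmablast arrays. A large gap of this kind is known from shortened RNA or cDNA. The 18S ribosomal RNA probe sets read 4.02, 4.21 and 7.38 in the plasma cell-labelled arrays, and 10.19 to 10.86 in the plasmablast arrays. Replicate 3, the array with a small 3′ to 5′ gap, was therefore also read on its own. Its 18S level was still below the arrays of the other sorted stages, which read 10.04 to 11.28. Its spread was narrow too, with an interquartile range of 3.40 against 3.70 to 4.07 in the plasmablast arrays and 4.03 in replicates 1 and 2. Its results are given as those of replicate 3 alone, meaning the same fit without replicates 1 and 2. The plasma cell arm is then 1 array whose spread is borrowed from the other stages. Many of the named genes called with all arrays were not called in this way, although some were named because they were. Among the plasmablast arrays, replicate 4 was the lowest for many secretory genes.

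The genes that define plasma cells went both ways against the label. Bcl6, which plasma cells shut down, fell, Bhlha15 rose, and most B-cell identity and MHC class II genes fell, as described below. Pax5, which they also shut down, fell too, but its probe set was weak in every stage. It averaged 3.98, 4.63, 4.92 and 3.64 in the pro-B, pre-B, transitional and germinal centre arrays. Several surface markers went against the label. Sdc1, the gene of the sort marker Cd138 on which both groups were selected, read 3.88, 4.60 and 5.71 in the plasma cell-labelled arrays, against 9.06, 9.99, 10.44 and 5.52 in the plasmablast arrays. All plasma cell-labelled arrays lay below 3 of the plasmablast arrays, and only plasmablast replicate 4 overlapped with them. Sdc1 fell by 4.02 ± 1.08 on the log2 scale (SE, limma adjusted p = 0.0144). The call was lost with replicate 3 alone (difference -3.05, limma adjusted p = 0.331). Without plasmablast replicate 4 the difference was -5.10 (limma adjusted p = 0.00137). The call was also lost on leaving out plasma cell-labelled replicate 1 or 2 (limma adjusted p = 0.0801 and 0.0545) or plasmablast replicate 3 (limma adjusted p = 0.0536), and with the 3′ to 5′ gap as a covariate (limma adjusted p = 0.201). Of the 3 other Sdc1 probe sets, 2 pointed the same way and differences ranged from -3.83 to 0.04. Tnfrsf17, the BCMA receptor that sustains marrow plasma cells, read 4.29, 4.09 and 4.06 in the plasma cell-labelled arrays and 4.46, 5.53, 4.67 and 3.23 in the plasmablast arrays. The groups overlapped and Tnfrsf17 was not called. Its signal was weak throughout, with 3.14 to 5.46 in the 28 arrays of other stages and tumours, so neither presence nor loss can be read from it. Ms4a1, the B-cell surface protein CD20 that plasma cells are known to lose, read 10.14, 10.62 and 7.69 in the plasma cell-labelled arrays and 10.08 to 10.73 in the plasmablast arrays. Cd22, a B-cell inhibitory receptor, read 10.76, 10.56 and 9.13 in the plasma cell-labelled arrays and 9.89 to 10.39 in the plasmablast arrays, and neither gene was called. The groups are therefore named below by their labels only. That holds for the plasmablast label too, whose arrays were close to the transitional and germinal centre arrays over genes, as given at the end. Whether a label or an array was exchanged was not tested, and each difference below is one between arrays so labelled.

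Most factors of the plasma cell programme were not called. Of the 8 measured plasma cell regulators, 1 rose and 1 fell, with a median difference of -0.27 beside 0.22 over all genes tested, of which 8.9% were called higher and 5.39% lower. Prdm1, the repressor Blimp-1, read 7.05, 7.07 and 6.90 in the plasma cell-labelled arrays and 7.18, 7.34, 6.38 and 5.52 in the plasmablast arrays, and the difference of 0.40 ± 0.44 was not called. Xbp1, the factor that expands the secretory pathway, read 8.44, 8.11 and 6.43 in the plasma cell-labelled arrays and 7.95, 9.10, 7.84 and 6.79 in the plasmablast arrays. Here the single array with little 3′ to 5′ gap lay below every plasmablast array, while the group difference of -0.26 ± 0.66 was not called. Irf4, which commits B cells to the plasma cell fate at high dose, read 10.08, 10.06 and 10.13 in the plasma cell-labelled arrays and 10.98, 11.23, 10.86 and 10.27 in the plasmablast arrays. The groups did not overlap for Irf4, yet the difference of -0.74 ± 1.26 was not called. The SD of Irf4 was 0.04 in the plasma cell-labelled arrays and 0.41 in the plasmablast arrays, while the pro-B arrays in the same fit ranged between 2.52 and 11.76. Ell2, an elongation factor for secreted immunoglobulin transcripts, Zbtb20 and Creb3l2 differed by -0.28, -1.01 and 0.75 and were not called.

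Bhlha15 (Mist1), a factor of secretory cells, rose to 7.28, 7.31 and 8.39 in the plasma cell-labelled arrays, against 6.12, 6.61, 6.28 and 3.93 in the plasmablast arrays. No array of one group overlapped with the other, and the difference was 1.92 ± 0.55 (limma adjusted p = 0.0204). With replicate 3 alone it was 2.65 and missed the threshold (limma adjusted p = 0.0624). The other Bhlha15 probe set was higher by only 0.12. Pou2af1, the B-cell co-activator OBF-1, fell to 9.44, 9.47 and 8.22 in the plasma cell-labelled arrays, against 10.66, 10.97, 9.73 and 9.54 in the plasmablast arrays. Its difference was -1.18 ± 0.35 (limma adjusted p = 0.0242), and it was also called with replicate 3 alone (limma adjusted p = 0.0123).

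Of 14 measured receptors and survival genes of the niche, 1 rose and 2 fell, beside 8.9% of all genes called higher and 5.39% lower. Il6st, the shared signalling chain gp130 of the interleukin-6 family, read 8.26, 8.33 and 7.95 in the plasma cell-labelled arrays and 7.00, 6.47, 6.65 and 5.95 in the plasmablast arrays, a rise of 1.66 ± 0.53 (limma adjusted p = 0.0405) that was lost with replicate 3 alone (limma adjusted p = 0.362). The 2 other Il6st probe sets were higher by only 0.05 and 0.22. Slamf7, a surface receptor that is a drug target on human myeloma cells, read 5.58, 4.87 and 4.42 in the plasma cell-labelled arrays and 7.02, 7.08, 6.92 and 5.81 in the plasmablast arrays. Its fall of 1.75 on the log2 scale was called with all arrays (SE 0.42, limma adjusted p = 0.00631) and with replicate 3 alone (limma adjusted p = 0.0305). Cd27, the receptor for Cd70, fell by 1.38 on the log2 scale (limma adjusted p = 0.0331) but was lost with replicate 3 alone (limma adjusted p = 0.366). The other receptors and the death and survival genes were not called. Among them Mcl1, which plasma cells need to survive, differed by -0.10 ± 0.48, Bcl2 by -1.38 ± 0.68, and Bcl2l1 and Bcl2l11 by -0.17 and -0.25. The BAFF and APRIL receptors Tnfrsf13c and Tnfrsf13b differed by -0.37 and -0.17. Cd28 differed by 1.75 ± 0.84, with 6.92 and 7.18 in replicates 1 and 2 but 3.06 in replicate 3, against 3.32 to 5.19 in the plasmablast arrays. Il6ra, Bak1 and Cd44 differed by 0.14, -0.78 and -0.82. The gate genes Ptprc and Cd93 were not called either. Ptprc read 10.40, 10.76 and 9.32 in the plasma cell-labelled arrays and 10.21 to 10.83 in the plasmablast arrays. Cd93 read 8.14, 7.84 and 6.03 in the plasma cell-labelled arrays, of which replicates 1 and 2 lay above all plasmablast arrays at 5.00 to 6.39.

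**Figure D1:**
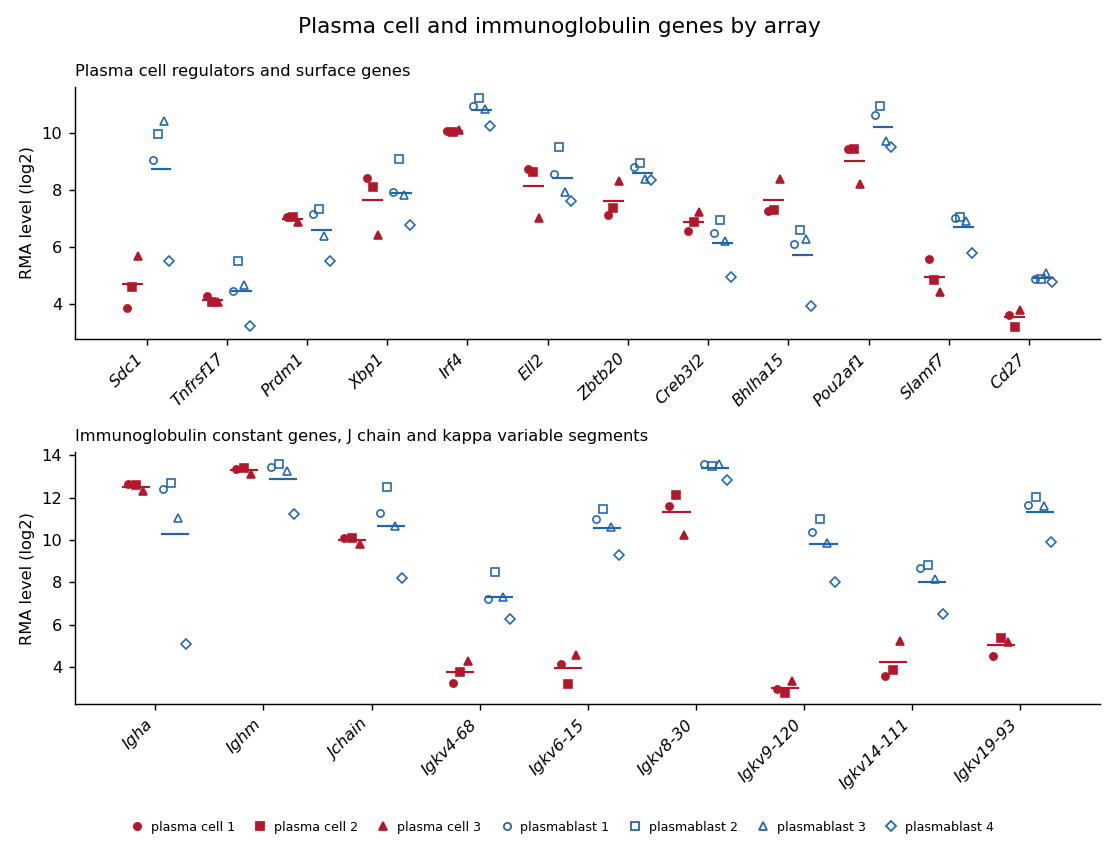
RMA level on the log2 scale (vertical axis) of plasma cell genes (top) and immunoglobulin genes (bottom), with plasma cell-labelled arrays in filled red left of plasmablast arrays in open blue, 1 symbol per replicate and a bar at each group mean. Sdc1 was lower in the plasma cell-labelled arrays than in plasmablast replicates 1 to 3, and the plotted kappa variable segments other than Igkv8-30 lay at 2.79 to 5.37 in the plasma cell-labelled arrays.

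Most kappa variable segments fell, while the probe sets that stood for the constant genes, the brightest of each gene, were mostly not called. Other probe sets of the same constant genes were far lower. Igha, the alpha heavy chain of IgA, read 12.63, 12.61 and 12.34 in the plasma cell-labelled arrays and 12.40, 12.70, 11.03 and 5.09 in the plasmablast arrays. Ighm, the mu heavy chain of IgM, read 13.38, 13.41 and 13.14 in the plasma cell-labelled arrays and 13.47, 13.61, 13.25 and 11.21 in the plasmablast arrays. Neither was called, and plasmablast replicate 4 was the lowest plasmablast array for both. The probe set named Igk for the kappa locus read 12.81, 12.82 and 12.70 in the plasma cell-labelled arrays, and 12.85 to 13.62 in the plasmablast arrays. Jchain, the joining chain of polymeric antibody, read 10.11, 10.10 and 9.81 in the plasma cell-labelled arrays and 11.28, 12.49, 10.66 and 8.19 in the plasmablast arrays. Neither Igk nor Jchain was called. The 3 other Igk probe sets differed by -1.88 to -6.31. The probe set that stood for Ighg3, the heavy chain of IgG3, fell by 3.02 ± 0.98 on the log2 scale (limma adjusted p = 0.0415). The call was lost with replicate 3 alone (difference -3.82). Plasma cell-labelled replicate 1 at 8.0060 lay just below plasmablast replicate 4 at 8.0075. The other Ighg3 probe sets differed by -0.37, -0.74 and -0.86.

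Of 14 measured kappa variable segments, 11 fell and none rose, beside 5.39% of all genes called lower. Of the 14, 10 fell with replicate 3 alone, beside 2.77% of all genes. The falls called with all arrays were 2.06 to 6.79 on the log2 scale. Igkv6-15 read 4.14, 3.20 and 4.57 in the plasma cell-labelled arrays and 11.00, 11.46, 10.61 and 9.29 in the plasmablast arrays, a fall of 6.63 ± 0.55 on the log2 scale (limma adjusted p = 3.25e-08). Igkv4-72 read 3.14, 3.22 and 3.78 in the plasma cell-labelled arrays and 7.48, 8.24, 7.68 and 6.46 in the plasmablast arrays. For both segments the groups lay far apart. The exception in size was Igkv8-30, which stayed high in both groups at 11.63, 12.13 and 10.23 in the plasma cell-labelled arrays and 12.83 to 13.61 in the plasmablast arrays, and fell by 2.06 ± 0.36 on the log2 scale (limma adjusted p = 0.000421). The heavy chain segment Ighv14-2 fell to 7.65, 7.82 and 5.60 in the plasma cell-labelled arrays, against 11.00 to 11.92 in the plasmablast arrays (limma adjusted p = 3.2e-06). The probe set that stood for Iglv1, the measured lambda segment, read 9.01, 8.79 and 8.02 in the plasma cell-labelled arrays and at most 8.61 in the plasmablast arrays and was not called. The other Iglv1 probe set went the other way, at 5.21, 5.43 and 7.06 in the plasma cell-labelled arrays and 8.36 to 10.83 in the plasmablast arrays. These probe sets belong to families of near-identical genes and can take signal from more than the named segment, so each value is uncertain as to its source. The Ighm probe sets disagreed widely. Of the 11, 8 were below the plasmablast mean, and 6 of these differed by -4.62 to -8.11. A constant gene cannot be called higher, lower or alike from these probe sets.

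Over all genes, 1771 of 12393 were called (14.3%), 1103 of them higher (8.9%) and 668 lower (5.39%) in the plasma cell-labelled arrays. At least 4-fold changes were seen in 420 of the genes called higher and 393 of those called lower. The median difference over all genes was 0.22, which dropped to 0.06 when the quantile normalization was renewed and to 0.10 with equal array medians. The share of calls that were higher was 62.3%, against 50% after the renewed normalization and 53.3% with equal medians. In 1715 of the 1771 called genes replicate 3 lay outside the plasmablast range on the called side. Replicate 3 was itself among the arrays behind these calls, so this count is largely set by the selection. With replicate 3 alone 731 genes (5.9%) were called, 388 higher (3.13%) and 343 lower (2.77%), of which 550 were also called with all arrays. Leaving out replicate 1 or 2 left 1141 and 1143 calls. Other settings raised the count, to 3308 with the 7 arrays alone, 4029 without 2 pro-B and pre-B arrays of narrow spread, and 6245 with array weights. The median within-group SD per gene was 0.40 in the plasma cell-labelled arrays and 0.26 in the plasmablast arrays.

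**Figure D2:**
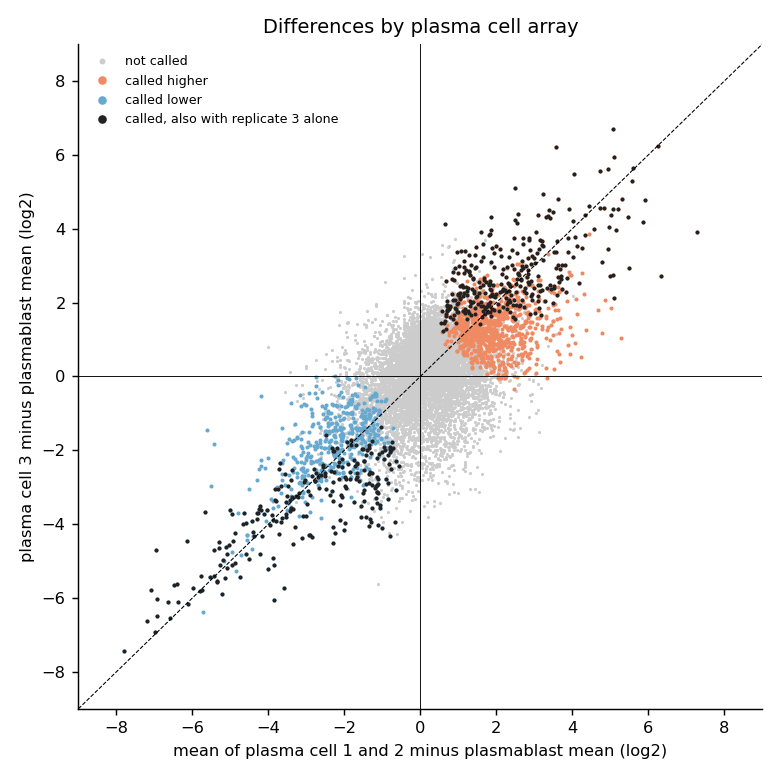
Each point is 1 gene, with the mean of plasma cell-labelled replicates 1 and 2 minus the plasmablast mean (horizontal, log2) against replicate 3 minus the plasmablast mean (vertical, log2), colours marking calls with all arrays and black the 550 genes also called with replicate 3 alone, and the dashed line marking equal differences. Most called genes lie in the same quadrant on both axes, with a median difference of 1.90 in replicates 1 and 2 and 1.58 in replicate 3 for the genes called higher. Replicate 3 is part of the calls, so this likeness is partly set by the selection.

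The largest increases included the ligands Tnfsf9 and Cd70. Tnfsf9, the ligand of the co-stimulatory receptor 4-1BB, read 9.48, 9.45 and 11.09 in the plasma cell-labelled arrays and 4.70, 4.21, 4.63 and 4.06 in the plasmablast arrays. It was 48.7-fold higher (5.61 ± 0.37 on the log2 scale, limma adjusted p = 1.6e-09), and 6.69 log2 units higher in replicate 3. The 28 arrays of the other stages and of tumours did not exceed 6.78 for Tnfsf9. Cd70, the ligand of Cd27, read 6.89, 6.69 and 9.45 in the plasma cell-labelled arrays and 3.12, 3.05, 3.25 and 3.49 in the plasmablast arrays. Replicate 3 was the highest array for both ligands. In the 28 other arrays Cd70 did not exceed 5.22. The symbol AF067061, for which no role is given here, had the largest difference at 10.00, 10.06 and 10.02 in the plasma cell-labelled arrays and 3.31 to 4.09 in the plasmablast arrays.

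Slc47a1, an exporter of organic cations, read 9.66, 9.90 and 6.41 in the plasma cell-labelled arrays and 2.21 to 2.82 in the plasmablast arrays. Slc7a3, a carrier of cationic amino acids, read 7.39, 7.58 and 8.92 in the plasma cell-labelled arrays and 2.93 to 3.79 in the plasmablast arrays. The enzymes among the increases were Cth, which makes cysteine from cystathionine, Cyp11a1, which starts steroid synthesis from cholesterol, the phospholipase Pla1a and the phosphatase Ppef2. Cth read 8.32, 8.36 and 8.08 in the plasma cell-labelled arrays and 2.63 to 2.86 in the plasmablast arrays, a rise of 5.47 ± 0.46 (limma adjusted p = 3.97e-08). Cyp11a1 read 8.56, 8.54 and 8.04 in the plasma cell-labelled arrays and 3.11 to 3.40 in the plasmablast arrays, and the 28 other arrays reached at most 5.50. In the 28 other arrays Cth reached 9.33, above all plasma cell-labelled arrays. Slc47a1 and Slc7a3 reached 9.28 and 8.20 there, within the range of the plasma cell-labelled arrays. Pla1a and Ppef2 rose by 5.00 ± 0.42 and 5.30 ± 0.37. All these genes were separate between the groups in every array. They were named by rules that ask for such separation or for a call with replicate 3 alone. The separation thus follows largely from how they were chosen.

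Enah and Avil, which bind actin, rose by 5.38 ± 0.30 and 5.08 ± 0.31 (limma adjusted p = 5.33e-10 and 5.41e-10). Enah read 8.76, 8.79 and 9.61 in the plasma cell-labelled arrays and 3.51 to 3.77 in the plasmablast arrays. Bmpr1a, a receptor for bone morphogenetic proteins, read 9.21, 9.26 and 9.93 in the plasma cell-labelled arrays and 3.74 to 4.51 in the plasmablast arrays. The planar polarity gene Prickle1 rose by 5.52 ± 0.52, Spats2 by 5.60 ± 0.40 and Nrep by 5.13 ± 0.62. Nrep was uneven among the arrays, at 11.60 and 11.61 in replicates 1 and 2 and 8.01 in replicate 3, against 5.16 to 5.52 in the plasmablast arrays. In the 28 other arrays Nrep reached 8.67, and Spats2 reached 7.76, below all plasma cell-labelled arrays. For Nrep and for Avil, 26 of these 28 arrays lay below all plasma cell-labelled arrays. Of all genes, 277 lay above every one of the 32 other arrays of the study in all plasma cell-labelled arrays, and 193 of these were called higher.

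**Figure D3:**
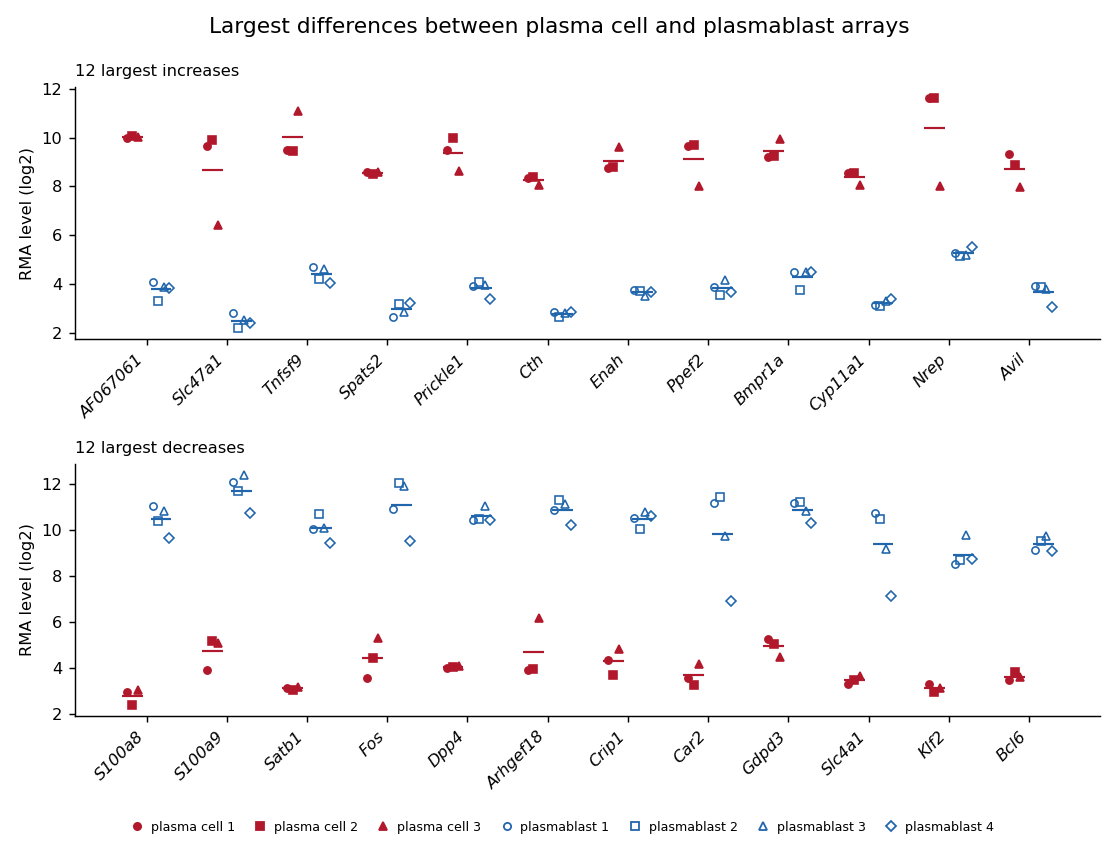
RMA level on the log2 scale (vertical axis) by array for the 12 largest increases (top) and the 12 largest decreases (bottom) among called genes without overlap between groups, plasma cell-labelled arrays in filled red left of plasmablast arrays in open blue, bars at group means. Slc47a1 and Nrep show the widest spread among the plasma cell-labelled arrays in the top row, at 6.41 to 9.90 and 8.01 to 11.61.

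The largest decreases included transcription factors of B cells and markers of other blood cells. Satb1, an organiser of chromatin in lymphocytes, read 3.14, 3.03 and 3.15 in the plasma cell-labelled arrays and 10.04, 10.69, 10.11 and 9.44 in the plasmablast arrays. The fall was 6.96 ± 0.92 on the log2 scale (limma adjusted p = 1.68e-05), with -6.92 in replicate 3. Bcl6, the repressor that holds B cells in the germinal centre state, read 3.47, 3.81 and 3.59 in the plasma cell-labelled arrays and 9.15, 9.54, 9.75 and 9.11 in the plasmablast arrays. It fell by 5.76 ± 0.70 on the log2 scale (limma adjusted p = 6.2e-06), and the 5 germinal centre arrays read 10.63 to 11.57. Klf2, a factor of lymphocyte quiescence and trafficking, read 3.29, 2.95 and 3.11 in the plasma cell-labelled arrays and 8.52, 8.68, 9.79 and 8.72 in the plasmablast arrays. These genes were low in all plasma cell-labelled arrays, replicate 3 included, and their groups were far apart. As members of the 12 largest decreases they were taken from genes without overlap between groups.

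Among surface and cytoskeletal genes, the peptidase Dpp4 (CD26) read 3.99, 4.03 and 4.06 in the plasma cell-labelled arrays and 10.43 to 11.07 in the plasmablast arrays. Vim, the intermediate filament vimentin, read 6.58, 6.71 and 4.44 in the plasma cell-labelled arrays and 10.02 to 10.77 in the plasmablast arrays. No array of the 28 others lay below 10.01 for Vim, so these 3 arrays were the lowest of the study. The LIM protein gene Crip1 fell by 6.21 ± 0.37 on the log2 scale (limma adjusted p = 5.41e-10). Gdpd3, a phosphodiesterase gene, fell by 5.94 ± 1.24 on the log2 scale, a call lost with replicate 3 alone (limma adjusted p = 0.0566).

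Markers of granulocytes and red cells made up 4 of the 12 largest decreases. S100a8 and S100a9, the calprotectin subunits of neutrophils, fell by 7.68 ± 0.95 and 7.00 ± 0.73 on the log2 scale (limma adjusted p = 6.84e-06 and 8.52e-07). S100a8 read 2.95, 2.39 and 3.03 in the plasma cell-labelled arrays and 11.04, 10.39, 10.83 and 9.64 in the plasmablast arrays. Slc4a1, the band 3 anion exchanger of red cells, read 3.30, 3.48 and 3.65 in the plasma cell-labelled arrays and 10.73, 10.48, 9.16 and 7.13 in the plasmablast arrays. Car2, a carbonic anhydrase of red cells and other tissues, was likewise lowest among the plasmablast arrays in replicate 4, at 6.91 against up to 11.44. Of 14 granulocyte markers 8 fell, of 13 erythroid markers 7 fell, and none of either list rose, beside 5.39% of all genes called lower. In replicate 3 alone 5 and 3 fell. The mean level of the granulocyte list was 3.26 to 3.85 in the plasma cell-labelled arrays and 5.95 to 7.86 in the plasmablast arrays. The erythroid list averaged 4.19 to 4.54 in the plasma cell-labelled arrays and 4.93 to 7.87 in the plasmablast arrays. Both lists were thus higher in the plasmablast arrays than in the plasma cell-labelled arrays, with plasmablast replicate 4 the lowest of that group in both. High levels were not confined to the plasmablast arrays. S100a8 averaged 11.90, 11.58, 6.09 and 11.24 in the pro-B, pre-B, transitional and germinal centre arrays, against 10.48 in the plasmablast arrays. Slc4a1 averaged 11.77 in the pre-B and 8.39 in the pro-B arrays, against 9.38 in the plasmablast arrays. It read 5.08 to 7.37 in the transitional and 6.92 to 8.98 in the germinal centre arrays. The part of both lists in the other differences was not tested.

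Markers of T cells, NK cells and macrophages also gave calls, beside 5.39% of all genes called lower and 8.9% higher. T-cell markers fell in 3 of 13 members and rose in 1, with list means of 4.10 to 4.67 in the plasma cell-labelled arrays and 5.30 to 5.71 in the plasmablast arrays. The falling members were Cd2, Cd3e and Cd3d, and the rising one was Cd5, an inhibitory receptor that a subset of B cells also carries. Mouse B cells also carry Cd2, which averaged 8.48, 9.94 and 9.71 in the pre-B, transitional and germinal centre arrays. Cd2 and Cd3e were called with replicate 3 alone as well. Cd5 read 8.23, 7.85 and 6.78 in the plasma cell-labelled arrays and 3.90, 4.24, 5.43 and 4.57 in the plasmablast arrays, with no overlap. It rose by 3.08 ± 0.55 (limma adjusted p = 0.000475), but not with replicate 3 alone (limma adjusted p = 0.112). NK-cell markers fell in 3 of 11 members (Nkg7, Eomes and Gzma) and macrophage and dendritic markers in 4 of 13 (Lyz2, Vcam1, C1qb and C1qc). In replicate 3 alone no NK-cell marker was called, and Lyz2 and Vcam1 fell. The NK list averaged 3.69 to 4.28 in the plasma cell-labelled arrays and 4.45 to 5.80 in the plasmablast arrays, and the macrophage list 4.04 to 4.12 in the plasma cell-labelled arrays and 4.63 to 5.88 in the plasmablast arrays. Lyz2, the lysozyme of phagocytes, read 3.70, 3.62 and 3.42 in the plasma cell-labelled arrays and 8.04 to 9.60 in the plasmablast arrays. No member of the basophil, eosinophil and mast list (9 genes) or the platelet list (7 genes) was called. Single members fell in other small lists, beside 5.39% of all genes called lower. They were 1 of 12 stroma and endothelium markers (Pecam1), 1 of 7 progenitor markers (Gata1) and 1 of 8 liver transcripts (Alb). Of these, Alb was also called with replicate 3 alone.

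**Figure D4:**
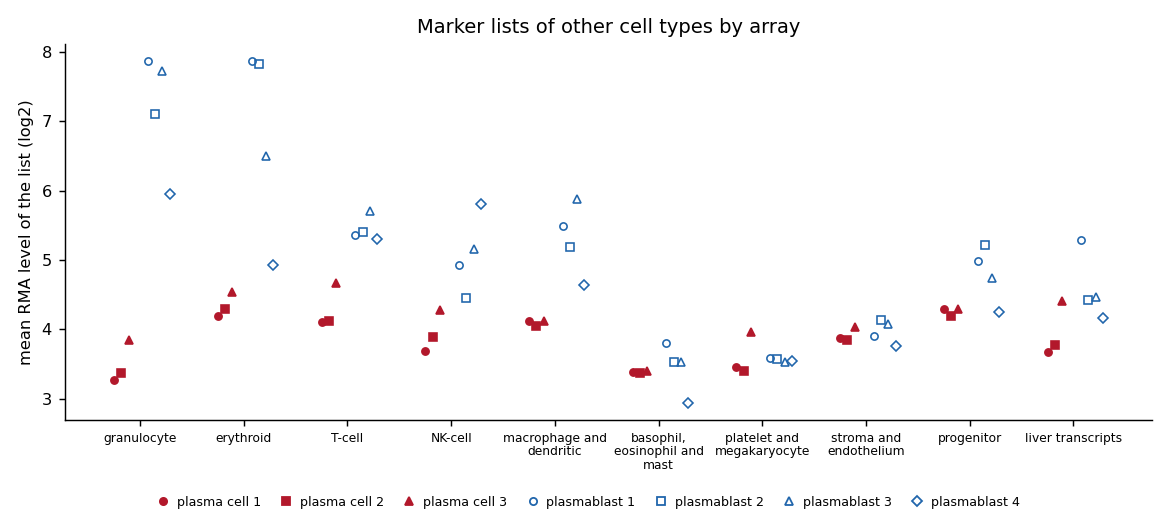
Mean RMA level on the log2 scale (vertical axis) of each marker list of other cell types (horizontal axis) by array, plasma cell-labelled arrays in filled red left of plasmablast arrays in open blue. Granulocyte markers averaged 3.26 to 3.85 in the plasma cell-labelled arrays and 5.95 to 7.86 in the plasmablast arrays.

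B-cell identity genes fell in 11 of 16 measured members and none rose, beside 5.39% of all genes called lower. The list had a median difference of -1.64 (all genes tested 0.22). Replicate 3 alone gave 7 falls, and its median difference was -2.72. Cr2, the complement receptor CD21, read 3.28, 3.17 and 4.91 in the plasma cell-labelled arrays and 9.50, 9.45, 9.52 and 8.98 in the plasmablast arrays. Fcer2a, the IgE receptor CD23 of follicular B cells, read 3.99, 4.08 and 3.93 in the plasma cell-labelled arrays and 6.88, 8.09, 8.81 and 7.57 in the plasmablast arrays. Both were far below the plasmablast range in every array. Cd37 and Cd72, surface proteins of B cells, fell by 3.43 ± 0.32 and 3.35 ± 0.79 on the log2 scale (limma adjusted p = 1.72e-07 and 0.00571). Among B-cell transcription factors, Ets1 read 8.87, 9.15 and 7.07 in the plasma cell-labelled arrays and 9.99 to 11.01 in the plasmablast arrays. Ebf1 read 7.44, 7.35 and 5.40 in the plasma cell-labelled arrays and 8.33 to 8.85 in the plasmablast arrays. Bach2, which delays plasma cell differentiation, read 7.82, 7.82 and 5.51 in the plasma cell-labelled arrays and 8.51 to 9.93 in the plasmablast arrays. In these 3 factors replicate 3 was the lowest array of all 7. Spib fell by 2.12 ± 0.56 on the log2 scale (limma adjusted p = 0.0131), and was not called with replicate 3 alone (limma adjusted p = 0.066). The receptor chains Cd79a and Cd79b fell by 1.47 and 1.33 on the log2 scale, to 9.76 or more in every plasma cell-labelled array. Pax5 read 3.33, 3.25 and 3.33 in the plasma cell-labelled arrays and 3.99 to 4.75 in the plasmablast arrays, and fell by 1.05 ± 0.34 on the log2 scale (limma adjusted p = 0.0416). Its probe set was weak in other B-cell stages too, with 3.18 to 4.11 in the germinal centre arrays. Cd79a, Cd79b and Pax5 were not called with replicate 3 alone (limma adjusted p = 0.541, 0.36 and 0.285).

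Signal transducers of the B-cell receptor were mostly not called. Of 14 measured members 1 fell, the inhibitory Fc receptor Fcgr2b, which read 7.24, 7.43 and 7.26 in the plasma cell-labelled arrays and 9.07 to 9.84 in the plasmablast arrays (limma adjusted p = 0.00691, and 0.122 with replicate 3 alone). Ptpn6, Pik3ap1 and Bcl10 had the next smallest p, with differences of -1.14, 1.26 and -2.24. The median difference of the list was -0.10, beside 0.22 over all genes, of which 5.39% were called lower. Of 6 measured germinal centre genes, Bcl6 fell and Mef2b, a factor that activates Bcl6, rose to 6.57, 6.64 and 8.28 in the plasma cell-labelled arrays, against 5.14 to 5.88 in the plasmablast arrays. The Mef2b difference was 1.70 ± 0.49 (limma adjusted p = 0.0226), and it was also called with replicate 3 alone. Gcsam and Fas differed by -1.16 and 0.92 and were not called.

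MHC class II genes, which present antigen to helper T cells, fell in 7 of 9 measured members and none rose. The list had a median difference of -1.53, and 5.39% of all genes were called lower. Of the 9, 5 fell with replicate 3 alone. The peptide loader H2-DMb2 read 4.34, 4.47 and 6.41 in the plasma cell-labelled arrays and 9.90, 10.45, 10.12 and 9.84 in the plasmablast arrays, a fall of 5.00 ± 0.48 on the log2 scale (limma adjusted p = 2.61e-07). H2-DMa, its partner, fell by 2.84 ± 0.60. The antigen-presenting chains stayed high while they fell. H2-Eb1 read 10.71, 10.72 and 10.13 in the plasma cell-labelled arrays and 12.03 to 12.13 in the plasmablast arrays, and H2-Ab1 read 11.08, 10.97 and 8.99 in the plasma cell-labelled arrays and 11.73 to 12.14 in the plasmablast arrays. H2-Aa fell by 1.15 ± 0.27 and the modulator H2-Oa by 1.46 ± 0.47 on the log2 scale. Ciita, the co-activator on which class II genes depend, read 7.90, 7.84 and 4.76 in the plasma cell-labelled arrays and 8.61 to 9.41 in the plasmablast arrays. Replicate 3 was the lowest array for Ciita by a wide margin, and with it alone the difference was -4.12 (limma adjusted p = 0.000657).

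Class II promoters are known for an X box and a Y box that bind the factors with which Ciita works. The stretches holding the Y box letters CTGATTGG are shown for the 3 class II genes of the list that had them, since these genes fell together, with the match in capitals.
H2-Aa: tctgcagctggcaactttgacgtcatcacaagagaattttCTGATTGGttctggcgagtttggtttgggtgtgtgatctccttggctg
H2-Eb1: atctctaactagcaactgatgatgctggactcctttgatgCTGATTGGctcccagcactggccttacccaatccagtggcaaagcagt
H2-Oa: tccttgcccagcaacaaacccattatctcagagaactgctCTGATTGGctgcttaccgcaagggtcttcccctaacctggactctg
The sequences run 5′ to 3′ on the gene's strand and come from RefSeq, build GRCm38.p6, at chr17:34287827-34287914 (minus strand), chr17:34305765-34305852 (plus strand) and chr17:34092293-34092378 (plus strand). Searched on both strands over 250 bases before the start, the letters were found in 3 of 6 class II promoters in the table and in 3.83% of 32851 promoters. A match describes the letters and not a bound site.

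Co-stimulatory genes moved both ways, with 4 of 13 higher and 3 lower, beside 8.9% and 5.39% of all genes. Beside Tnfsf9 and Cd70, Cd80 and Cd86, the ligands of CD28, rose. Cd80 read 7.14, 6.94 and 5.27 in the plasma cell-labelled arrays and 3.65 to 4.40 in the plasmablast arrays, and Cd86 read 8.55, 8.79 and 7.18 in the plasma cell-labelled arrays and 5.96 to 7.37 in the plasmablast arrays. Neither Cd80 nor Cd86 was called with replicate 3 alone (limma adjusted p = 0.395 and 0.655), whereas Tnfsf9 and Cd70 were. Icosl, the ligand of ICOS on T cells, read 6.06, 6.03 and 4.86 in the plasma cell-labelled arrays and 9.07 to 9.62 in the plasmablast arrays, a fall of 3.75 ± 0.46 on the log2 scale (limma adjusted p = 7.13e-06). The other Icosl probe set differed by only -0.24. Pdcd1lg2 and Cd83 fell by 1.40 and 1.34 on the log2 scale, and not with replicate 3 alone (limma adjusted p = 0.322 and 0.296).

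Homing receptors fell in 7 of 17 measured members and none rose, beside 5.39% of all genes called lower. The list had a median difference of -1.59. Cxcr4, the receptor for the marrow chemokine Cxcl12, read 8.82, 8.57 and 9.61 in the plasma cell-labelled arrays and 11.40, 11.71, 11.14 and 11.10 in the plasmablast arrays. It fell by 2.34 ± 0.41 on the log2 scale (limma adjusted p = 0.00039), and with replicate 3 alone its difference of -1.73 was not called (limma adjusted p = 0.0971). S1pr1, which lets lymphocytes leave tissues, read 5.38, 4.37 and 6.29 in the plasma cell-labelled arrays and 7.32 to 8.24 in the plasmablast arrays. Ccr6, Ccr9 and Cxcr3, receptors for mucosal and inflammatory chemokines, fell by 4.22, 2.39 and 2.57 on the log2 scale. The 2 other Ccr9 probe sets went the other way, at 0.16 and 0.17. Itga4, the alpha 4 integrin that binds Vcam1, read 5.88, 5.87 and 5.72 in the plasma cell-labelled arrays and 7.27 to 7.54 in the plasmablast arrays. The members that fell in replicate 3 alone were Klf2 and Ccr6.

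The secretory pathway showed few calls. Over 5 lists with 95 measured members (chaperones, translocation, N-glycosylation, degradation and transport to the Golgi) 3 rose and 2 fell, a share below the background of 8.9% and 5.39%, with a median difference of -0.17. Ero1a, which supplies oxidation for disulphide bonds, read 9.63, 9.85 and 9.67 in the plasma cell-labelled arrays and 7.50 to 7.80 in the plasmablast arrays, a rise of 2.10 ± 0.50 (limma adjusted p = 0.00562). Srp19 of the signal recognition particle rose by 1.07 ± 0.33 and Prkcsh, the beta subunit of glucosidase II, by 1.22 ± 0.32. Ganab, the alpha subunit of the same enzyme, fell by 1.04 ± 0.31 on the log2 scale, but its other probe set was higher by 1.09. Derl3, a channel component for degradation of misfolded proteins, read 4.24, 4.14 and 4.77 in the plasma cell-labelled arrays and 8.12, 8.71, 7.83 and 5.68 in the plasmablast arrays. It fell by 3.20 ± 0.50 on the log2 scale (limma adjusted p = 0.000117). Fkbp11, a folding enzyme of secretory cells, read 7.35, 7.02 and 9.98 in the plasma cell-labelled arrays and 7.15, 7.29, 6.97 and 4.47 in the plasmablast arrays. It was called with replicate 3 alone (difference 3.51, limma adjusted p = 0.0226) and not with all arrays. The calls of Ero1a, Srp19 and Ganab were lost in replicate 3 alone (limma adjusted p = 0.129, 0.644 and 0.3), where 2 of the 95 members rose and 1 fell.

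Targets of the integrated stress response, which the factor Atf4 drives when amino acids or folding capacity run short, split in direction. Of 15 measured, 3 were higher and 2 lower, beside 8.9% and 5.39% of all genes. Chac1, which degrades glutathione, read 7.43, 7.52 and 8.10 in the plasma cell-labelled arrays and 4.60, 3.72, 3.40 and 2.59 in the plasmablast arrays. Trib3, a pseudokinase that feeds back on the response, read 7.87, 8.09 and 9.01 in the plasma cell-labelled arrays and 5.83, 4.59, 4.59 and 3.75 in the plasmablast arrays. Their rises of 4.11 ± 0.58 and 3.64 ± 0.69 were called with all arrays and with replicate 3 alone. Slc7a5, an amino acid transporter, rose by 1.60 ± 0.45. Asns, asparagine synthetase, went the other way, at 3.49, 3.55 and 3.67 in the plasma cell-labelled arrays and 8.61, 8.07, 7.36 and 6.34 in the plasmablast arrays. Its fall of 4.02 ± 0.78 on the log2 scale was called (limma adjusted p = 0.0011), and with replicate 3 alone the difference of -3.92 was not (limma adjusted p = 0.0652). Ppp1r15a, a phosphatase subunit that ends the response, fell by 2.01 ± 0.62 on the log2 scale. Slc7a5 was lost with replicate 3 alone (limma adjusted p = 0.122). So was Ppp1r15a (limma adjusted p = 0.824), at 7.49 in replicate 3, inside the plasmablast range of 6.37 to 9.01.

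Chac1 and Asns moved in opposite directions although both promoters hold the letters TGATGNAA of the C/EBP-ATF response element that Atf4 binds, on one strand or the other. The match is in capitals.
Chac1: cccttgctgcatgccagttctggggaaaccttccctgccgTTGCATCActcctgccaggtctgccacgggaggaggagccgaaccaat
Asns: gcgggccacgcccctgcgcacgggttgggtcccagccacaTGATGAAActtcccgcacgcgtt
They are RefSeq sequences of build GRCm38.p6 at chr2:119351009-119351096 (plus strand) and chr6:7693210-7693272 (minus strand), 5′ to 3′. These letters were found in 3 of 13 promoters of the list in the table, the third being that of Slc7a11, which differed by 0.07 and was not called, and in 3.45% of 32851 promoters.

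Calls among cell division genes with all arrays were higher ones, beside 8.9% of all genes called higher. Of 22 mitosis genes 6 rose and none fell, with a median difference of 1.44, and 16 of the 22 did not overlap between groups, beside 24.1% of all genes that lay above. None of them was called with replicate 3 alone, although its median difference was 1.31. Cenpf, a kinetochore protein, read 7.98, 7.84 and 6.90 in the plasma cell-labelled arrays and 5.30, 5.05, 5.20 and 4.06 in the plasmablast arrays, a rise of 2.67 ± 0.59 (limma adjusted p = 0.00349). Bub1, a checkpoint kinase, read 9.16, 9.52 and 8.85 in the plasma cell-labelled arrays and 7.00, 6.72, 6.56 and 5.35 in the plasmablast arrays. The kinase Ttk, the motors Kif11 and Kif20a and the activator Cdc20 rose by 2.09, 1.74, 2.16 and 2.28. Plasmablast replicate 4 was the lowest array for each of these genes.

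DNA replication genes rose in 5 of 24 members and fell in none, beside 8.9% of all genes called higher. The list had a median difference of 0.84. Pole, the leading strand polymerase, read 8.59, 8.92 and 7.23 in the plasma cell-labelled arrays and 5.94, 5.69, 5.68 and 4.98 in the plasmablast arrays. It rose by 2.67 ± 0.38 (limma adjusted p = 3.89e-05) and was the replication gene called with replicate 3 alone. Chaf1b, Cdc45, Tyms and Lig1 rose by 2.38, 1.88, 0.85 and 1.40. Genes of G1 and of cell cycle exit fell in 5 of 18 members and rose in 1, beside 5.39% and 8.9% of all genes. Cdkn1b, the inhibitor p27, read 7.79, 6.84 and 6.57 in the plasma cell-labelled arrays and 8.14 to 10.04 in the plasmablast arrays. Cdkn1a, the inhibitor p21, rose to 6.32, 6.57 and 7.75 in the plasma cell-labelled arrays, against 3.59 to 4.33 in the plasmablast arrays (2.89 ± 0.65, limma adjusted p = 0.00413), and was also called with replicate 3 alone. Cdkn2d, Ccng2, Ccnd3 and Btg1 fell by 1.95, 1.81, 2.00 and 1.95 on the log2 scale. Of the genes that fell, Cdkn1b and Ccng2 were also called with replicate 3 alone.

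Glycolysis enzymes rose in 8 of 13 measured members and fell in none, beside 8.9% of all genes called higher. The list had a median difference of 1.19. Hk2, hexokinase 2, read 7.63, 7.84 and 9.41 in the plasma cell-labelled arrays and 6.13 to 6.59 in the plasmablast arrays, and was the member called with replicate 3 alone (limma adjusted p = 0.0162). Ldha, lactate dehydrogenase A, read 11.66, 11.48 and 11.07 in the plasma cell-labelled arrays and 9.19 to 9.95 in the plasmablast arrays. Tpi1, Pfkp, Pkm and Aldoa rose by 2.21, 2.13, 1.84 and 1.41. Pgam1 and Pgk1 rose by 1.19 each, but replicate 3 differed by 0.07 and 0.40. The list's median difference in replicate 3 was 0.54, beside 0.30 over all genes.

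Growth and energy genes rose in few members, beside 8.9% of all genes called higher. Ribosome biogenesis genes rose in 3 of 22 (Nop56, Srm and Gnl3), oxidative phosphorylation in 3 of 27 (Uqcrc2, Sdha and Uqcrfs1), and the proteasome in 1 of 27 (Psmc6), with none lower. In replicate 3 alone the counts were 0, 1 and 1. Uqcrc2, a core subunit of complex III, read 11.40, 11.43 and 10.73 in the plasma cell-labelled arrays and 8.55 to 9.16 in the plasmablast arrays, a rise of 2.37 ± 0.34 (limma adjusted p = 4.19e-05) also called with replicate 3 alone. Nop56, a ribosomal RNA processing protein, read 11.90, 11.94 and 10.77 in the plasma cell-labelled arrays and 8.62 to 9.71 in the plasmablast arrays. Myc, a transcription factor of cell growth that plasma cells are known to silence, read 9.90, 9.87 and 11.78 in the plasma cell-labelled arrays and 10.24, 10.08, 10.30 and 9.67 in the plasmablast arrays, and was not called (0.45 ± 0.85). Yy1, the zinc finger factor named in the study's title, read 9.85, 9.91 and 9.44 in the plasma cell-labelled arrays and 9.57 to 10.01 in the plasmablast arrays and was not called. Its 3 other probe sets were higher by 0.85 to 1.32.

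Immediate early genes, which respond within minutes to stimulation, fell in 9 of 15 members and rose in 1. The median difference was -2.64, and over all genes 5.39% were called lower and 8.9% higher. Fos, a subunit of AP-1, read 3.58, 4.44 and 5.30 in the plasma cell-labelled arrays and 10.92, 12.03, 11.93 and 9.51 in the plasmablast arrays, a fall of 6.66 ± 0.89 on the log2 scale (limma adjusted p = 2.17e-05). Egr1, a zinc finger factor, read 6.05, 5.93 and 5.58 in the plasma cell-labelled arrays and 10.69, 11.50, 11.51 and 9.68 in the plasmablast arrays. Zfp36, which destabilises cytokine mRNA, read 4.84, 4.60 and 5.67 in the plasma cell-labelled arrays and 9.44, 9.64, 9.83 and 8.55 in the plasmablast arrays. Within the plasmablast group replicate 4 was the lowest for all 3. Jun, Klf6, Nr4a1, Egr2, Dusp1 and Fosb fell by 2.60 to 3.54 on the log2 scale, and Ier3 rose by 2.00 ± 0.60. The members called in replicate 3 alone were Fos and Zfp36. Within 250 bases before the start, the CArG box of serum response promoters was found in 1 of 12 promoters of the list, that of Zfp36. It was found in 1.47% of all promoters. Egr1 was not among the promoters searched, and bases further upstream were not searched for any gene.

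Autophagy genes fell in 2 of 17 members (Gabarap and Lamp1) and rose in 1 (Gabarapl1), beside 5.39% of all genes called lower and 8.9% higher. Gabarapl1 read 7.59, 7.16 and 8.37 in the plasma cell-labelled arrays and 5.32, 5.21, 5.21 and 4.10 in the plasmablast arrays (2.75 ± 0.57, limma adjusted p = 0.00212). Gabarap, its relative in membrane conjugation, read 6.19, 6.64 and 8.89 in the plasma cell-labelled arrays and 9.11 to 9.56 in the plasmablast arrays, so that replicates 1 and 2 were far below replicate 3. Gabarap and Lamp1 were not called with replicate 3 alone, where they differed by -0.44 and -0.42. Of 11 early B-cell genes none was called, and Sox4, Il7r and Dntt differed by -2.46, -1.18 and -1.59.

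**Figure D5:**
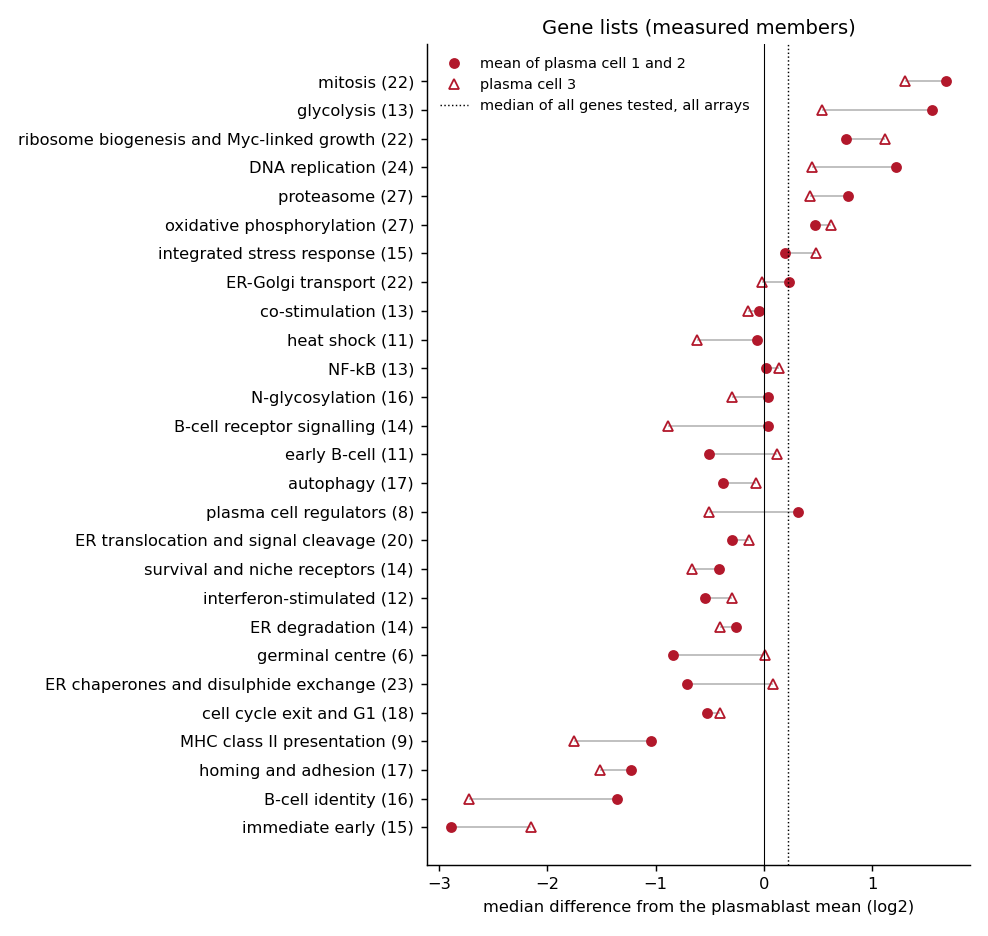
Median log2 difference from the plasmablast mean over the members of each list (horizontal axis), for the mean of plasma cell-labelled replicates 1 and 2 (filled) and for replicate 3 (open), lists on the vertical axis with the number of measured genes. Mitosis stands at 1.68 in replicates 1 and 2 and 1.31 in replicate 3, and immediate early genes at -2.89 and -2.15, beside 0.22 over all genes tested (dotted line).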

How the data were processed

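Per the labels' protocols, RNA of the sorted cells was extracted in Tripure and amplified by NuGen Ovation V2 before hybridization. The deposited values are log2 probe set levels that the authors made with RMA, per the submitters' processing notes. The version and which arrays were normalized together are not given in the sources used here. Of 22690 probe sets, 20380 had 1 gene symbol. The probe set with the highest mean over all 35 arrays stood for a gene, which gave 12393 genes. Groups came from the titles. The contrast was fitted with limma 3.58.1 in R 4.3.3 on the 22 normal arrays (cell means, empirical Bayes). The fit was tested on simulated data. It recovered 65% of changes of 2 and 90% of changes of 3 on the log2 scale, with 11 unchanged genes called. The simulated noise was independent between arrays, unlike the uneven plasma cell-labelled arrays. A gene that was not called may still differ. Arrays give no counts, so their number limits the precision.

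Genes named are Sdc1, Bcl6, Tnfsf9 and Satb1; the 12 largest increases and decreases among called genes without overlap between groups, leaving aside antigen receptor segments and the sort markers; the 8 largest each way in replicate 3 among genes called both ways; of each list the 4 members of smallest p and any called member; all measured plasma cell regulators and niche receptors; Myc and Yy1. Immunoglobulin genes and the B-cell markers Ms4a1 and Cd22 were added for the check of the labels. The members, lists and motifs were chosen with earlier results of these data known. Alternatives were another probe set summary, filters, scalings, priors, array weights, other sets of arrays, a replicate block and a 3′ to 5′ covariate. Averaging replicates 1 and 2 was added after seeing the data.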

Additional observations from a re-analysis of the deposited data

Results flagged for a closer look

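In 24 of 224 named genes 1 plasmablast array stood apart, its gap to the nearest array exceeding the 95% critical value of Dixon's test for 4 arrays. Chance flags about 1 in 20 groups. The 3 plasma cell-labelled arrays are too few for this test. Plasmablast replicate 4 was the low array in 17 of them: Avil (3.06), Slamf7 (5.81), Cr2 (8.98), Fas (4.94), Fkbp11 (4.47), Srp19 (8.63), Sec63 (7.11), Cdc20 (5.05), Ccnd3 (7.35), Nop56 (8.62), Srm (7.45), Uqcrfs1 (7.85), Tpi1 (7.66), Pgam1 (7.46), Pgk1 (9.40), Gabarapl1 (4.10) and Rsad2 (5.47). Plasmablast replicate 3 was high for Dpp4 (11.07), Klf2 (9.79), H2-DMa (10.42) and Ltf (8.16), replicate 2 was low for Cth (2.63) and Bmpr1a (3.74), and replicate 1 was high for Alb (6.83).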

How the results depend on the processing

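The calls with all arrays were 1771 (1103 higher, 668 lower). Leaving out 1 array gave 1141 to 1843 calls, 688 to 1204 higher and 448 to 639 lower. The lowest counts came without plasma cell-labelled replicates 1 and 2 (1141 and 1143), and 1843 without replicate 3. Replicate 3 alone gave 731 (388 and 343), and replicates 1 and 2 averaged into 1 array gave 1144 (688 and 456). Without dim genes 1125 of 6197 were called (641 and 484). Array weights gave 6245 (3950 and 2295), the 7 arrays alone 3308 (2065 and 1243), and leaving out the pro-B and pre-B arrays of narrow spread 4029 (2592 and 1437). With the 3′ to 5′ difference as a covariate 1257 were called, 841 higher and 416 lower, of which 1027 were also called without it. Same-numbered arrays had deviations correlated at -0.08, 0.195 and 0.12. The labels do not say that the numbers pair arrays, and so few correlations cannot settle it. A replicate block gave 1492 calls (892 and 600). Of 148 named called genes, 47 lost their call with the covariate, and leaving out 1 array ended 23 to 45. More lost it with replicate 3 alone, although some were named for their call in that fit. Direction turned in 1, Ganab, to 0.0269 with the mean of all probe sets. The cause of these changes was not tested beyond their construction, by fewer arrays or genes.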

Other observations

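Of 11 measured heat shock genes 1 rose and 1 fell, beside 8.9% of all genes called higher and 5.39% lower. Hspb1, a small chaperone, read 6.47, 6.55 and 7.48 in the plasma cell-labelled arrays and 2.96, 3.10, 3.18 and 2.87 in the plasmablast arrays, and it did not exceed 4.91 in the 28 other arrays. It rose by 3.80 ± 0.34 (limma adjusted p = 9.57e-08) and was called with replicate 3 alone. Hspa1b, an inducible chaperone, fell by 3.29 ± 0.85 on the log2 scale (limma adjusted p = 0.0106), with plasmablast arrays between 5.57 and 8.77, a call lost with replicate 3 alone (limma adjusted p = 0.196). Among NF-kB genes Ccl3, a chemokine, rose to 6.93, 6.68 and 8.77 in the plasma cell-labelled arrays, against 4.83 to 5.59 in the plasmablast arrays, and was the member of 13 called with all arrays. Rsad2 was the called member of 12 interferon-stimulated genes and fell by 3.34 ± 0.58 on the log2 scale (limma adjusted p = 0.000411). A single call in either list is close to the shares of all genes given above.

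Plasma cell-labelled replicates 1 and 2 correlated over genes with the mean of the Lig4/p53 tumours at r = 0.918 and 0.917, above their correlation with the plasmablast mean (0.879 and 0.877) and the germinal centre mean (0.876 and 0.875). Replicate 3 correlated with the same tumours at 0.853, with the plasmablast mean at 0.862 and with the transitional B-cell mean at 0.869. Genes are not independent replicates, and these are descriptions. The 6 tumours had 3′ minus 5′ differences of 2.25 to 3.64 and 18S levels of 4.15 to 6.15, so that RNA measures moved with this likeness, and their part in it was not tested. The plasmablast arrays correlated with the transitional and germinal centre means at 0.953 to 0.970 and 0.965 to 0.975. With the plasma cell-labelled mean they correlated at 0.880 to 0.891, and with the mean of the other plasmablast arrays at 0.979 to 0.989.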
